A study of Schizosaccharomyces pombe with 2 samples.

Results

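The nuclear tRNA genes for alanine, glycine, valine, leucine, isoleucine, proline and methionine were followed in small RNA of the fission yeast Schizosaccharomyces pombe. The genes were taken from the deposited annotation as tRNA genes on chromosomes I, II and III whose identifier names any of these 7 amino acids. Genes lying in an interval around each centromere were left out, and the rule itself uses no measured value. This gave 46 genes of the 171 nuclear tRNA genes and of the 9139 annotated features of the table. Outside them were 70 nuclear tRNA genes for other amino acids, 55 nuclear tRNA genes in the centromeric intervals, of which 28 are for the same 7 amino acids, and 25 mitochondrial tRNAs.

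The strains compared were the exo2Δ strain YAM2397 and the wild-type (WT) strain YAM2394, each grown exponentially and each giving 1 library. Exo2, the homologue of Xrn1 in this yeast, is a cytoplasmic exonuclease that degrades RNA from its 5′ end. RNA of 10 to 40 nt was cut from a gel and read from a single end to 40 nt. With 1 library per strain no difference below has a replicate check, no test of the strains was possible, and the intervals given cover counting error only. The intervals do not cover how reads with several places in the genome were assigned.

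A nuclear tRNA gene is transcribed by RNA polymerase III from promoter elements inside the gene, the A box and the B box, and transcription ends in a run of T after the gene. RNase P removes the leader, tRNase Z the trailer, a CCA end is added by an enzyme, and an intron, where there is one, lies next to the anticodon and is spliced out. The anticodon pairs with the codon, and an A in its first position is usually changed to inosine. In budding yeast, Xrn1 and its nuclear relative Rat1 (Dhp1 in fission yeast) degrade tRNAs that lack certain modifications, among them the valine tRNA with anticodon AAC. Small RNA of this size holds pieces of tRNAs, and the deposited table gives 1 value per gene and not where in the tRNA a read lay or how long it was.

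In all 46 genes an anticodon was found by a search for a stem closing a loop of 7 bases, with 5 pairs in the stem or, in SPATRNALEU.02 and SPBTRNALEU.05, with 4. Each read a codon of the gene's amino acid. The genes held 19 different anticodons and 27 different sequences, and 29 of them (63.0%) were identical to another nuclear tRNA gene, against 133 of all 171 (77.8%). Sequences are those of the reference assembly ASM294v3 from RefSeq, in which all 171 nuclear tRNA genes have the position given in the table. The genes with the most reads of their amino acid that have a sequence of their own, and SPATRNAPRO.02, a proline gene with a larger value in exo2Δ, are shown first, since most of the reads lay in them. Capitals mark the anticodon, 5′ to 3′.
SPATRNAALA.06: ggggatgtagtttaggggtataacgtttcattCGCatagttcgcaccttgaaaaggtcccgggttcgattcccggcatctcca
SPBTRNAGLY.09: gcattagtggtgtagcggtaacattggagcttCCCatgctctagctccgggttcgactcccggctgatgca
SPATRNAVAL.01: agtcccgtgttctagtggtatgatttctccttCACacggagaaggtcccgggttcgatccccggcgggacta
SPATRNALEU.03: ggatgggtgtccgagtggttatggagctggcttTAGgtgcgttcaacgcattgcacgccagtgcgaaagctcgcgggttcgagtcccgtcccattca
SPATRNAILE.02: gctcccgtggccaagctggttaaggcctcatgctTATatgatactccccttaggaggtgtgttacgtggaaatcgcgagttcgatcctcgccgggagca
SPBTRNAPRO.08: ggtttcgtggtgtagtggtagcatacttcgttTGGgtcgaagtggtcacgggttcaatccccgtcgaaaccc
SPATRNAPRO.02: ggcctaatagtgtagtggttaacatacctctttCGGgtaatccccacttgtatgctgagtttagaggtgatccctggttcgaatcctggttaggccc

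The next sequences stand for genes with several identical copies, among which were genes with low values in exo2Δ relative to WT and genes with no reads at all. Capitals again mark the anticodon. SPBTRNAALA.07 has the same sequence as SPATRNAALA.01, printed here, and SPCTRNAILE.09 that of SPATRNAILE.01. SPBTRNAPRO.07 and SPBTRNAMET.06 stand for sets of 6 and 4 identical members.
SPATRNAALA.01: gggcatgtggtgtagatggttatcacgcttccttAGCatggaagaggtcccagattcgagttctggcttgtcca
SPATRNAILE.01: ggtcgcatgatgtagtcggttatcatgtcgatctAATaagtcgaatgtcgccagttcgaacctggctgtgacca
SPBTRNAPRO.07: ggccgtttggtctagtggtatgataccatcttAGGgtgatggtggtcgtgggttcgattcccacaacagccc
SPBTRNAMET.06: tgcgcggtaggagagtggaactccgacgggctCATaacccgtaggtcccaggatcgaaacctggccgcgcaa

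The members were 71 to 99 bases long (median 72), with a GC content of 44.6% to 62.5% (median 54.2%). An intron was annotated in 11 of the 46 (23.9%), against 44 of all 171 nuclear tRNA genes (25.7%). The B box, searched as GTTCNANNC on the gene's strand, was found in 40 members (87.0%) and in 156 of all 171 genes (91.2%), and on the other strand in 5 (10.9%) and 12 (7.02%). Among the members without this form were the identical methionine genes printed as SPBTRNAMET.06. They hold GATCGAAAC and matched when A was also allowed in place of the first T. A gene without a match in this search need not lack a B box. TTTT was found within 25 bases after the end of all 46 members, at a median of 3 bases, and after 163 of all 171 genes (95.3%). None of the 46 had CCA directly after its end, as 4 of all 171 genes had. The 4 identical methionine genes printed as SPBTRNAMET.06 carry GGG and CCC in the anticodon stem, the mark of initiator tRNAs, and were read as initiator genes from this, since the annotation does not name them.

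Summed over the 9139 features, the exo2Δ library held 13678760 reads and the WT library 13555082 reads. The 3 coding exons of exo2 held 26 reads in exo2Δ and 251 reads in WT, which is the direction of the labels. Of all feature reads, the 46 members took 62.1% in exo2Δ (Wilson 95% interval 62.11% to 62.16%) and 58.0% in WT (58.01% to 58.06%). Mitochondrial tRNAs took 20.7% in exo2Δ and 22.2% in WT, and the other nuclear tRNAs 1.32% in exo2Δ and 1.22% in WT. The members thus held 97.1% of nuclear tRNA reads in exo2Δ and 97.1% in WT. RNA came from whole cultures, so that fewer cells with an RNA and less of it per cell cannot be told apart.

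Reads were very unequally spread over the members. SPATRNAALA.06, SPBTRNAGLY.09 and SPBTRNAGLY.04 together held 98.6% of member reads in exo2Δ and 99.0% in WT. The other 43 genes held 122095 reads in exo2Δ (0.893% of all feature reads) and 78175 reads in WT (0.577%). The median member had 141.5 reads in exo2Δ and 238 reads in WT. No read was counted in either library in SPATRNAMET.01, SPCTRNAMET.07, SPBTRNAPRO.04 and SPCTRNAPRO.09, and a count of 0 allows up to 3 reads. The order of the members was much the same in both libraries (Spearman's rho 0.98 over 46 genes, which share sequences and the same pair of libraries).

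**Figure D1:**
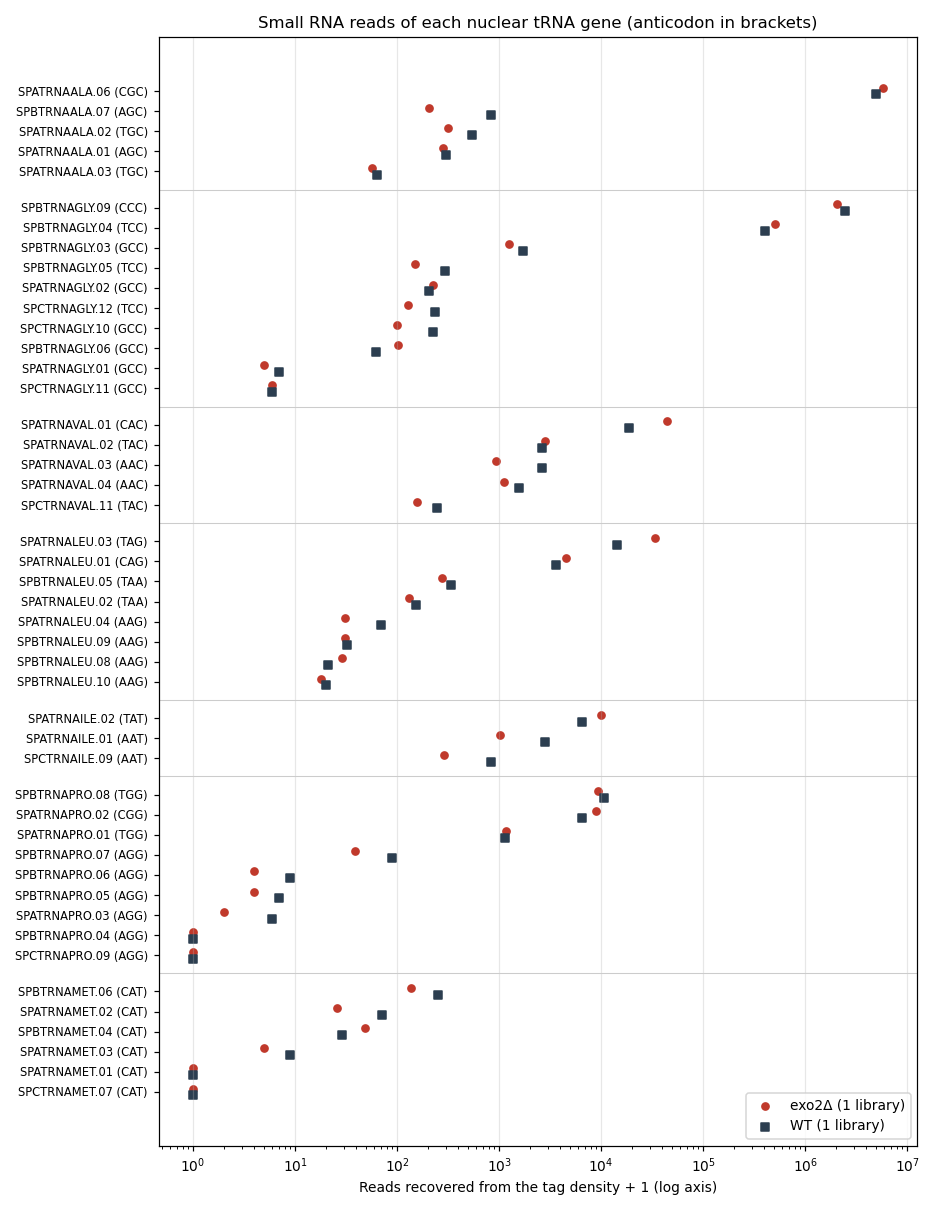
Reads of each of the 46 tRNA genes plus 1 read, on a log axis, with exo2Δ as circles and WT as squares, 1 library each, and the genes grouped by amino acid with the most read gene on top. Within alanine and glycine, 3 genes lie at or above 505088 reads in exo2Δ and 406812 reads in WT and the others at or below 1245 in exo2Δ and 1706 in WT, and in the other amino acids the genes spread from 0 to 44378 reads in exo2Δ and from 0 to 18987 reads in WT.

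Alanine genes held 68.2% of member reads in exo2Δ and 62.6% in WT, and glycine genes 30.4% in exo2Δ and 36.5% in WT. Every other amino acid had less than 1% of member reads. Valine had 0.581% in exo2Δ and 0.331% in WT, and leucine 0.458% in exo2Δ and 0.237% in WT. Both shares were larger in exo2Δ than in WT beyond counting error, as was the alanine share, while the glycine share was smaller. Isoleucine had 0.133% in exo2Δ and 0.129% in WT, proline 0.229% in exo2Δ and 0.236% in WT, and methionine 0.00249% in exo2Δ and 0.00458% in WT. The alanine share lay almost wholly in its highest gene: without SPATRNAALA.06, alanine had 0.0316% in exo2Δ and 0.0592% in WT.

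Log2 ratios of exo2Δ over WT were taken on deposited densities with 1 read added to both libraries, where the mean of the libraries was 10 reads or more, which 36 of the 46 members passed. Of these 36, 2 were over 2-fold higher in exo2Δ and 8 over 2-fold lower. Over all 5945 features that passed, 3.97% were over 2-fold higher and 6.91% over 2-fold lower. The median log2 ratio of the 36 members was -0.22, with 13 above 0 and 23 below, beside a median of -0.13 over all features, -0.15 over mRNAs, -0.35 over the other nuclear tRNAs that passed and 0.28 over mitochondrial tRNAs. Scaling the libraries on sn(o)RNAs moved log2 ratios by -0.24, and the member median was then -0.46 beside -0.37 over all features, with 0 members over 2-fold higher and 12 lower in exo2Δ. On that scaling 0% of the members past 2-fold were on the higher side, against 20% as deposited. The shares of all features past 2-fold were not counted on that scaling, which moves every feature to the lower side. These counts are therefore not a result about the members alone.

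Alanine tRNA genes were dominated by a single gene. SPATRNAALA.06, with anticodon CGC and an intron of 11 bases (chromosome I, 4796977 to 4797059, plus strand), was that gene. It held 5793538 reads in exo2Δ and 4920919 reads in WT, more than any other of the 9139 features in both libraries, at a density of 69654 tags per nt in exo2Δ and 59288 in WT. This is 1.17-fold higher in exo2Δ (exact binomial 95% interval 1.173 to 1.176), a log2 ratio of 0.23, which became -0.011 with scaling on sn(o)RNAs. The direction of its difference therefore depends on the scaling.

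The other alanine genes had a small part of these reads, and none had a larger value in exo2Δ. SPBTRNAALA.07 (AGC, chromosome II, 285676 to 285749) held 206 reads in exo2Δ and 837 reads in WT. It was 4.07-fold lower in exo2Δ (3.49 to 4.77), the lowest ratio of the members that passed, with a log2 ratio of -2.02. SPATRNAALA.01 (chromosome I, 934665 to 934738) has the same 74 bases and held 280 reads in exo2Δ and 302 in WT, so that the identical copies differed in their ratio by more than counting error and changed places between libraries. Of the reads of this pair, SPATRNAALA.01 had 57.6% in exo2Δ, while SPBTRNAALA.07 had 73.5% in WT. Both share their sequence with 7 genes of the centromeric intervals. SPATRNAALA.02 and SPATRNAALA.03, an identical pair with anticodon TGC, held 314 and 56 reads in exo2Δ and 542 and 63 reads in WT, log2 ratios of -0.79 and -0.17.

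Glycine genes have 3 anticodons, and most of their reads lay in SPBTRNAGLY.09 and SPBTRNAGLY.04. SPBTRNAGLY.09, with anticodon CCC (chromosome II, 2069487 to 2069557, plus strand), held 2078550 reads in exo2Δ and 2461164 reads in WT and ranked just after SPATRNAALA.06 in both libraries. Its density was 29213 tags per nt in exo2Δ and 34664 in WT, 0.843 times as high in exo2Δ (0.841 to 0.844), a log2 ratio of -0.25. It was lower in exo2Δ under every scaling tried, with log2 ratios between -0.49 (sn(o)RNAs) and -0.092 (median ratio of mRNAs). Reads of SPATRNAALA.06 and SPBTRNAGLY.09, the most abundant members, thus differed in opposite directions between the libraries as deposited.

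The glycine genes with anticodon TCC are near copies of each other. They are printed below in full because their values lie far apart, and capitals mark the positions at which they differ.
SPBTRNAGLY.04: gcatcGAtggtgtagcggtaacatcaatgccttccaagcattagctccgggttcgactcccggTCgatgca
SPBTRNAGLY.05: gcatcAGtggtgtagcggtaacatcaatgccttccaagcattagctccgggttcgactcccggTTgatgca
SPCTRNAGLY.12: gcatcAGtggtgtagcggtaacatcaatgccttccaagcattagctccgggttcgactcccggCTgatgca

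Counted from 1 at the 5′ end of the gene, SPBTRNAGLY.04 differs from SPBTRNAGLY.05 by G6A, A7G and C65T, so that 95.8% of their 71 bases are the same, and from SPCTRNAGLY.12 by G6A, A7G, T64C and C65T. SPBTRNAGLY.05 and SPCTRNAGLY.12 differ only by T64C. SPBTRNAGLY.04 (chromosome II, 285389 to 285459, minus strand) held 505088 reads in exo2Δ and 406812 reads in WT, 1.24-fold higher in exo2Δ (1.234 to 1.244). SPBTRNAGLY.05 (chromosome II, 326235 to 326305) held 148 reads in exo2Δ and 295 in WT, and SPCTRNAGLY.12 (chromosome III, 2037352 to 2037422) 127 reads in exo2Δ and 233 in WT, log2 ratios of -0.99 and -0.87. SPBTRNAGLY.04 thus had 3413 times the reads of SPBTRNAGLY.05 in exo2Δ (2905 to 4037) and 1379 times in WT (1230 to 1551). It lies 216 bases from SPBTRNAALA.07, on the other strand.

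The 6 glycine members with anticodon GCC have identical sequences, which 2 genes of the centromeric intervals share, and the copy with the most reads still had 311 times those of the lowest in exo2Δ and 341 times in WT. SPBTRNAGLY.03 had 1245 reads in exo2Δ and 1706 in WT, which is 74.2% of the reads of the 6 in exo2Δ and 77.2% in WT. SPATRNAGLY.02 had 224 reads in exo2Δ and 205 in WT, SPBTRNAGLY.06 102 in exo2Δ and 61 in WT, and SPCTRNAGLY.10 98 in exo2Δ and 226 in WT. SPATRNAGLY.01 had 4 reads in exo2Δ and 6 in WT, and SPCTRNAGLY.11 had 5 in each. SPBTRNAGLY.06 was 1.67-fold higher in exo2Δ (1.20 to 2.33), while SPCTRNAGLY.10, with a log2 ratio of -1.20, was 2.31-fold lower (1.82 to 2.96), so that copies of the same sequence lay on opposite sides of 0.

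What follows the gene differs between these identical copies, so the first 25 bases after each are shown, on the gene's strand, with the first TTTT in capitals, in the order of their reads in exo2Δ.
SPBTRNAGLY.03: tacgaTTTTacgatctgaacttact
SPATRNAGLY.02: ttaTTTTttaccaaaacaatttttg
SPBTRNAGLY.06: atgtttcttgTTTTtattgttaatt
SPCTRNAGLY.10: tttaagttaatgTTTTtgctaccgt
SPCTRNAGLY.11: tttaTTTTtctctttttatattcca
SPATRNAGLY.01: ttgaagttaatttcaTTTTtttaaa

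The TTTT began after 5, 3, 10, 12, 4 and 15 bases in this order, which is not the order of the reads. These trailers were not tested against the reads, and the table does not say whether a read reached into them.

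Valine reads lay mostly in a single gene. SPATRNAVAL.01, with anticodon CAC (chromosome I, 446000 to 446071, plus strand), held 44378 reads in exo2Δ and 18987 reads in WT, a density of 615 tags per nt in exo2Δ and 264 in WT. It was 2.33-fold higher in exo2Δ (2.29 to 2.37), a log2 ratio of 1.22, and 0.98 when scaled on sn(o)RNAs. SPATRNAVAL.02 and SPCTRNAVAL.11, identical genes with anticodon TAC, held 2839 and 156 reads in exo2Δ and 2614 and 243 reads in WT. SPATRNAVAL.02 had 18.2 times the reads of its copy in exo2Δ (15.5 to 21.5) and 10.8 times in WT (9.43 to 12.3).

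The valine genes with anticodon AAC give the same tRNA after splicing but differ in their introns. SPATRNAVAL.03 (chromosome I, 2214733 to 2214814), with an intron of 8 bases, held 931 reads in exo2Δ and 2623 reads in WT and was 2.82-fold lower in exo2Δ (2.62 to 3.05), a log2 ratio of -1.50. SPATRNAVAL.04 (chromosome I, 3710739 to 3710821), with an intron of 9 bases, held 1112 reads in exo2Δ and 1578 in WT, a log2 ratio of -0.51. It is identical to 7 genes of the centromeric intervals and shares 74 bases with the noncoding transcript XUT0681 of the same strand, whose 1122 reads in exo2Δ and 1587 in WT include the same reads where the features overlap. Within valine the CAC gene was thus higher in exo2Δ and both AAC genes lower, as deposited.

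Leucine reads, too, lay mostly in a single gene. SPATRNALEU.03, with anticodon TAG and an intron of 18 bases (chromosome I, 3591948 to 3592044, plus strand), held 33870 reads in exo2Δ and 14390 reads in WT, a density of 348 tags per nt in exo2Δ and 148 in WT. It was 2.35-fold higher in exo2Δ (2.30 to 2.40), a log2 ratio of 1.23, the highest of the members, and 0.99 when scaled on sn(o)RNAs. It lies wholly within the gene SPAC17G6.03 on the same strand. That gene held 33940 reads in exo2Δ and 14438 in WT, of which 70 in exo2Δ and 48 in WT lay outside the tRNA gene.

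SPATRNALEU.01, with anticodon CAG, also has a sequence of its own and held 4538 reads in exo2Δ and 3602 reads in WT, a log2 ratio of 0.33. SPATRNALEU.02 and SPBTRNALEU.05, with anticodon TAA, give the same tRNA after splicing and differ by T43C and T46G within the gene, counted as above. They held 131 and 275 reads in exo2Δ and 152 and 336 reads in WT, log2 ratios of -0.22 and -0.29. The 4 genes with anticodon AAG had the fewest reads of the leucine genes. No stretch of 30 nt inside them has a single place in the genome, so few reads need not mean few pieces of the tRNA. SPATRNALEU.04 had 30 reads in exo2Δ and 69 in WT, a log2 ratio of -1.18, and its identical copy SPBTRNALEU.09 had 30 in exo2Δ and 31 in WT. SPBTRNALEU.08 and SPBTRNALEU.10, also identical, had 28 and 17 reads in exo2Δ and 20 and 19 in WT, and for both the counting interval of the fold held 1. SPBTRNALEU.10 shares 73 bases with XUT1229 of the same strand, which held 134 reads in exo2Δ and 48 in WT.

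Isoleucine genes split by anticodon. SPATRNAILE.02, with anticodon TAT and an intron of 25 bases (chromosome I, 2578426 to 2578524, plus strand), held 9971 reads in exo2Δ and 6489 reads in WT, a density of 101 tags per nt in exo2Δ and 65.5 in WT. It was 1.53-fold higher in exo2Δ (1.49 to 1.58), a log2 ratio of 0.62. The genes with anticodon AAT are identical and were both lower. SPATRNAILE.01 (chromosome I, 1772296 to 1772369) held 1021 reads in exo2Δ and 2803 in WT and was 2.75-fold lower in exo2Δ (2.56 to 2.96). SPCTRNAILE.09 (chromosome III, 817425 to 817498) held 285 reads in exo2Δ and 839 in WT and was 2.95-fold lower (2.58 to 3.39). In this identical pair the ratio of the copies was nearly the same in both libraries, 3.58 in exo2Δ (3.14 to 4.10) and 3.34 in WT (3.09 to 3.61).

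Of the 9 proline genes, 5 had at most 8 reads in either library. SPBTRNAPRO.08, with anticodon TGG (chromosome II, 3360519 to 3360590, minus strand), held 9243 reads in exo2Δ and 10777 reads in WT, a log2 ratio of -0.22. SPATRNAPRO.01 has the same anticodon and differs by 5 bases, C3T, G49C, G56A, C63G and G69A, with the base of SPATRNAPRO.01 given first and positions counted as above. It held 1170 reads in exo2Δ and 1145 in WT, so that SPBTRNAPRO.08 had 7.90 times its reads in exo2Δ (7.43 to 8.40) and 9.41 times in WT (8.86 to 10.01). SPATRNAPRO.02, with anticodon CGG and an intron of 24 bases (chromosome I, 1314924 to 1315020), held 9004 reads in exo2Δ and 6509 reads in WT and was 1.38-fold higher in exo2Δ (1.34 to 1.43).

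The 6 identical proline genes with anticodon AGG had few reads. SPBTRNAPRO.07 (chromosome II, 2939715 to 2939786) held 38 reads in exo2Δ and 89 reads in WT, 2.35-fold lower in exo2Δ (1.59 to 3.53), and had 84.4% of the reads of the 6 in exo2Δ and 82.4% in WT. The other 5 had 0 to 3 reads each in exo2Δ and 0 to 8 in WT, of which SPATRNAPRO.03 had 1 in exo2Δ and 5 in WT, and SPBTRNAPRO.05 and SPBTRNAPRO.06 had 3 each in exo2Δ and 6 and 8 in WT.

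Methionine genes had the fewest reads of the 7 amino acids, with 212 reads in exo2Δ and 360 reads in WT over all 6 members. Every stretch of 30 nt inside the 4 initiator genes has 4 places in the genome. Few reads there need not mean few pieces of the tRNA, since reads with a single place were kept. SPBTRNAMET.06 (chromosome II, 2434303 to 2434374, minus strand), an initiator gene, held 135 reads in exo2Δ and 254 reads in WT and was 1.89-fold lower in exo2Δ (1.52 to 2.34), a log2 ratio of -0.91. It had 97.1% of initiator reads in exo2Δ and 96.9% in WT and stands alone, 114939 bases from the nearest tRNA gene. The other initiator genes each lie 7 bases after a serine tRNA gene of the same strand. SPATRNAMET.03 had 4 reads in exo2Δ and 8 in WT, and SPATRNAMET.01 and SPCTRNAMET.07 had 0 in both. SPATRNAMET.01 lies wholly within XUT1349 of the same strand, which also overlaps the serine gene and held 668 reads in exo2Δ and 454 in WT. No window of 30 nt that crosses the start of these 3 genes has a single place in the genome, against 96.6% of such windows of SPBTRNAMET.06. For windows that cross the end, the share was 65.5% in SPATRNAMET.01, 93.1% in SPATRNAMET.03 and 65.5% in SPCTRNAMET.07, against 100% in SPBTRNAMET.06. These shares were not tested against the reads. Of the serine genes before the 3 initiator genes, SPATRNASER.01 had 668 reads in exo2Δ and 447 in WT, SPATRNASER.03 160 in exo2Δ and 104 in WT, and SPCTRNASER.11 6 in exo2Δ and 8 in WT.

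The elongator methionine genes SPATRNAMET.02 and SPBTRNAMET.04 give the same tRNA after splicing and had introns of 9 and 7 bases. SPATRNAMET.02 held 25 reads in exo2Δ and 70 in WT, a log2 ratio of -1.45, and SPBTRNAMET.04 held 48 in exo2Δ and 28 in WT, a log2 ratio of 0.75. The counting intervals of the folds did not overlap, at 0.216 to 0.570 and 1.05 to 2.83, so that genes of the same spliced sequence lay on opposite sides of 0 here too.

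Per the study's methods, reads were kept where they mapped to a single genomic place with up to 3 mismatches, so the sequence of each gene was cut into all windows of 30 nt and each was looked up on both strands of the reference. In 29 of the 46 members no window without mismatch had a single place, in 17 at least 1 did, and in 6 all did. These 6 were SPATRNAALA.06, SPATRNAILE.02, SPATRNALEU.01, SPATRNALEU.03, SPATRNAPRO.02 and SPATRNAVAL.01. Reads wholly inside a gene with an identical copy have more than 1 place, so that counts in the 28 members that form 9 sets of identical genes depend on how such reads were handled. The same holds for SPATRNAVAL.04, which is identical to 7 genes of the centromeric intervals. SPATRNAVAL.03, SPATRNALEU.02, SPBTRNALEU.05, SPATRNAMET.02 and SPBTRNAMET.04 are among the 17, but each gives the same tRNA after splicing as another member. Pieces of the spliced tRNA therefore do not tell these genes from the other member. The mapping options for reads with more than 1 place are not given in the sources used here.

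**Figure D2:**
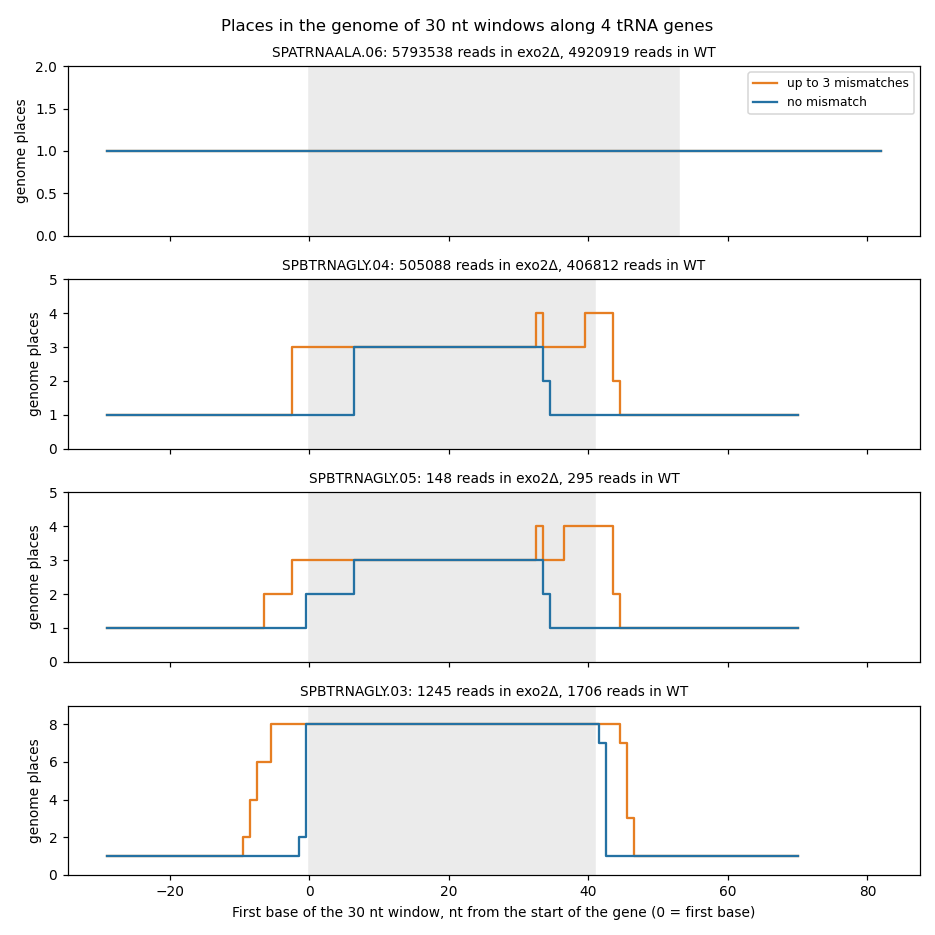
Number of places in the genome of each 30 nt window against the first base of the window in nt from the start of the gene, without mismatch (blue) and with up to 3 mismatches (orange), for SPATRNAALA.06, SPBTRNAGLY.04, SPBTRNAGLY.05 and SPBTRNAGLY.03, with windows wholly inside the gene shaded grey. SPATRNAALA.06 stays at 1 place throughout, SPBTRNAGLY.04 and SPBTRNAGLY.05 reach 3 places without mismatch, and SPBTRNAGLY.03 has 8 places inside the gene and 1 place in windows that reach far enough beyond either end.

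SPBTRNAGLY.04, with 505088 reads in exo2Δ and 406812 reads in WT, had a single place in 14 of its 42 windows without mismatch, and in none when up to 3 mismatches were allowed. SPBTRNAGLY.05 and SPCTRNAGLY.12 had 7 of 42 each without mismatch and none with up to 3, yet 148 and 127 reads in exo2Δ and 295 and 233 in WT. SPBTRNAGLY.09 had a single place in 41 of 42 windows without mismatch. In 7 of the 9 sets of identical members the same copy had the most reads in both libraries. A further set, SPATRNALEU.04 and SPBTRNALEU.09, was tied in exo2Δ, and the alanine AGC pair differed.

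**Figure D3:**
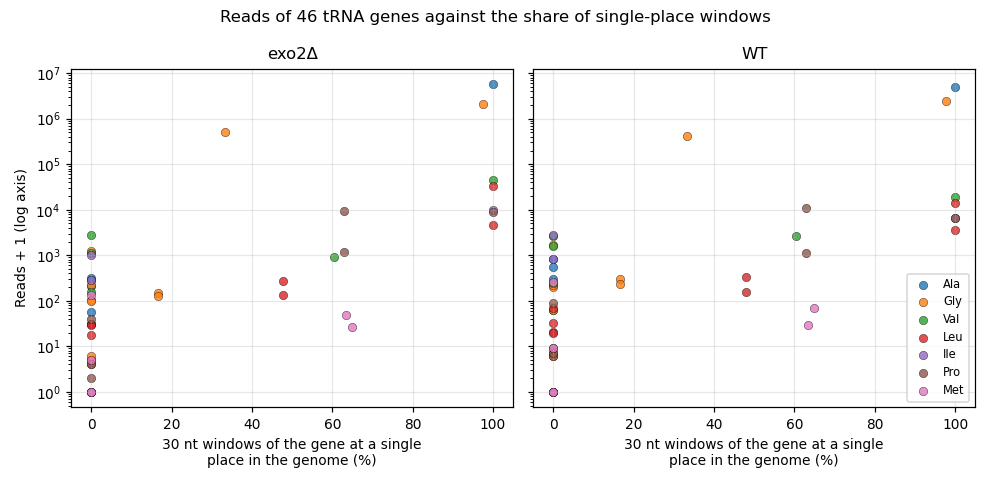
Reads plus 1 read of the 46 tRNA genes, on a log axis, against the percent of the gene's 30 nt windows that have a single place in the genome, for exo2Δ (left) and WT (right), coloured by amino acid. Genes with no such window lie at or below 2839 reads in exo2Δ and 2803 reads in WT, and genes with all windows at a single place lie at or above 4538 reads in exo2Δ and 3602 reads in WT.

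Members with single-place sequence had more reads, with a Spearman's rho of 0.62 in exo2Δ and 0.63 in WT between the share of such windows and the reads, over 46 genes of which many share a sequence. The 29 members without such a window held 8236 reads in exo2Δ and 12539 reads in WT, 0.655 times as many in exo2Δ. Of the 19 of them that passed the filter on reads, 4 were above 0 and 15 below, 6 of them over 2-fold lower in exo2Δ and 0 over 2-fold higher, with a median log2 ratio of -0.51. The 6 members with all windows at a single place were all above 0, from 0.23 to 1.23, with a median of 0.54, and the 2 members over 2-fold higher in exo2Δ, SPATRNALEU.03 and SPATRNAVAL.01, were among them. Over all features that passed, 3.97% were over 2-fold higher in exo2Δ and 6.91% over 2-fold lower.

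Each scaling moves all log2 ratios by nearly the same amount, so the order of these medians could not change. The sign of single genes could. On sn(o)RNAs, 5 of the 6 were above 0, SPATRNAALA.06 being the exception, with a median of 0.30, and 2 of the 19 were above 0, with a median of -0.75. On the median ratio of mRNAs, all 6 were above 0, with a median of 0.70, and 6 of the 19, with a median of -0.35. Taken as the 17 members with at least 1 single-place window, the median was 0.028 as deposited, with 9 above 0 and 8 below, and 2 over 2-fold higher and 2 over 2-fold lower in exo2Δ. Of the other nuclear tRNAs, the 17 that passed and had at least 1 such window had a median of 0.33, with 14 above 0 and 3 below, and the 40 that passed and had none had a median of -0.92, with 9 above and 31 below. Of these 17, 1 was over 2-fold higher in exo2Δ and 0 over 2-fold lower. Of these 40, 3 were over 2-fold higher and 17 over 2-fold lower, so genes over 2-fold higher also occurred without such a window. How far mapping took part in these differences was not tested.

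**Figure D4:**
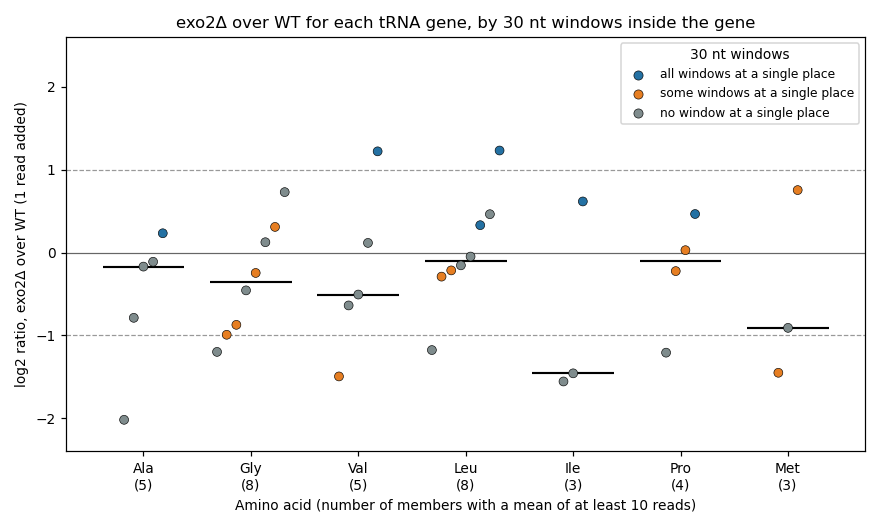
Log2 ratio of exo2Δ over WT of the 36 tRNA genes that averaged 10 reads or more over the libraries, by amino acid, with the number of genes in brackets, a bar at the median of each amino acid, dashed lines at 2-fold, and colours for the share of 30 nt windows at a single place. The genes with all windows at a single place lie above 0 in all 5 amino acids that have one as deposited (SPATRNAALA.06 at -0.011 on sn(o)RNAs), and every amino acid has genes on both sides of 0.

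Within an amino acid the ratios spread more than the medians of the amino acids did. The median log2 ratio was -0.17 for the 5 alanine genes, with a range of -2.02 to 0.23, -0.35 for the 8 glycine genes that passed, from -1.20 to 0.73, and -0.51 for the 5 valine genes, from -1.50 to 1.22. It was -0.10 for the 8 leucine genes, from -1.18 to 1.23, -1.46 for the 3 isoleucine genes, from -1.56 to 0.62, -0.098 for the 4 proline genes that passed, from -1.21 to 0.47, and -0.91 for the 3 methionine genes that passed, from -1.45 to 0.75. The medians of leucine and proline turned to 0.046 and 0.056 with scaling on the median ratio of mRNAs, and that of leucine to 0.057 among genes averaging 50 reads or more. Members with an annotated intron had a median of 0.23, with 6 above 0 and 5 below, and those without that passed had -0.25, with 7 above and 18 below, and 5 of the 6 genes with all windows at a single place carry an intron. Of the intron genes without that property, SPATRNAVAL.03, SPATRNAVAL.04, SPATRNALEU.02, SPBTRNALEU.05 and SPATRNAMET.02 were below 0 and SPBTRNAMET.04 was above. SPATRNAVAL.01, which has all windows at a single place and no intron, was at 1.22. Neither the intron nor the single-place windows were tested as a cause of these ratios.

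Genes whose products act on tRNAs were looked up in the same small RNA libraries, in which their reads are pieces of mRNA and not levels of the mRNA. Of 15 listed genes of tRNA processing and decay, 14 were found and passed the filter on reads. Of the 4749 mRNAs that passed, 114 were over 2-fold higher in exo2Δ and 240 over 2-fold lower. Of the 14 genes, none was over 2-fold higher and 1 was over 2-fold lower. This was the deleted exo2, with 57 reads over its whole gene in exo2Δ and 254 in WT. As the deleted gene, it was bound to be low in exo2Δ. None of the other genes found was past 2-fold in either direction, which is near that background. With exo2 included, the median log2 ratio of the 14 genes was -0.24, with 3 above 0 and 11 below. dhp1, the nuclear exonuclease, had 338 reads in exo2Δ and 444 in WT, and sla1, the La protein that binds new tRNA transcripts, 292 in exo2Δ and 490 in WT. trz1, a tRNase Z, had 158 reads in exo2Δ and 136 in WT.

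All 12 genes annotated as tRNA ligases of these 7 amino acids, which load the amino acid onto a tRNA, passed the filter. The annotated names do not say whether a ligase acts in the cytosol or in mitochondria, so the list may mix both. Of the 4749 mRNAs that passed, 114 were over 2-fold higher in exo2Δ and 240 over 2-fold lower. Of the 12 ligase genes, 0 were past 2-fold in either direction, a count near that background. Their median log2 ratio was -0.23, with 4 above 0 and 8 below, from -0.58 for the methionine ligase rar1, with 234 reads in exo2Δ and 349 in WT, to 0.73 for the isoleucine ligase ism1, with 475 in exo2Δ and 285 in WT. The alanine ligase ala1 had 1118 reads in exo2Δ and 1364 in WT, and the glycine ligase grs1 1215 in exo2Δ and 1468 in WT.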

How the data were processed

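For each annotated feature the authors deposited a signal, the tag density in tags per nt, with 1 column per library. Per the study's methods, adapters were trimmed and reads mapping to a single genomic place were kept, with Bowtie 0.12.8, allowing 3 mismatches. The submitters' processing notes name cutadapt, Bowtie and ASM294v2. The study describes a filter on read length for the small RNA analysis and, for centromeric repeats, a mapping that reports all places of a read. Whether either applies to the deposited values, how reads with several places were handled and how the libraries were scaled are not given in the sources used here. Bowtie does not align across splice junctions.

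Density times feature length was whole (within 0.01) in 100% of WT rows, and a whole multiple of 0.998 in 100% of exo2Δ rows. Reads were recovered from these steps, which was tested on simulated data (reads recovered in 100% of 19343 rows). Coding exons were left out, leaving 9139 features, which can overlap. A ratio used deposited densities with 1 read added, for features averaging 10 reads or more. Fold intervals are exact binomial 95% intervals of reads, and share intervals Wilson 95%. No molecular identifiers were used, so reads are not independent molecules. A count test was not run because the unit is a signal and each strain has 1 library.

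Every member was accounted for. Full values were given for the member with the most reads of each amino acid, for the 5 largest ratios in each direction among members averaging 50 reads or more, and for copies identical to these. The rule for members uses no measured value, but it and the lists were chosen with earlier results of these data known. Python 3.11.15, numpy 2.4.6, pandas 2.3.3, scipy 1.17.1, statsmodels 0.14.6, numba 0.67.0 and matplotlib 3.10.9 were used. Alternatives changed the scaling, the added reads, the filter, the fold limit, the whole of each share and the window length.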

Additional observations from a re-analysis of the deposited data

How the results depend on the processing

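No paired analysis was possible because there was only 1 library of each strain, and for the same reason no library could be left out. The 2 members over 2-fold higher in exo2Δ became 0 when scaled on sn(o)RNAs, 5 with a fold limit of 1.5, and 1 without members lying wholly in another feature, and the 8 lower became 13 with the limit of 1.5 and 5 with identical copies summed. Leaving out members in another feature and summing identical copies were chosen after seeing the data. The shares of all features past the limit were not counted under these alternatives, so the member counts have no background beside them here. Under the other alternatives both counts stayed within 1.5 times, and the member median kept its sign under all 9, between -0.46 and -0.066. On sn(o)RNAs and on mRNAs (median ratio), the median log2 ratio was -0.60 and -0.20 for glycine, -0.75 and -0.35 for valine, and -1.70 and -1.30 for isoleucine. The leucine median turned to 0.046 on mRNAs and to 0.057 among genes averaging 50 reads or more, and that of proline to 0.056 on mRNAs. The median was -0.34 for proline on sn(o)RNAs and -0.43 for methionine without a filter, which adds genes with few reads. SPATRNAALA.06 turned to -0.011 on sn(o)RNAs. Of 70 values of named members, 47 stayed within counting error, 22 moved and this 1 reversed.

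The member share of reads was 4.26% in exo2Δ and 2.78% in WT without the 10 highest features, 97.1% of nuclear tRNA reads in exo2Δ and 97.1% in WT, and 71.2% in exo2Δ and 68.5% in WT as summed density. Without SPATRNAALA.06, shares of member reads in exo2Δ were 0.0316% for alanine, 95.6% for glycine, 1.83% for valine, 1.44% for leucine, 0.417% for isoleucine, 0.719% for proline and 0.00784% for methionine, and in WT 0.0592%, 97.4%, 0.884%, 0.632%, 0.344%, 0.629% and 0.0122% in the same order. As summed density they were in exo2Δ 64.8% for alanine, 33.8% for glycine, 0.634% for valine, 0.374% for leucine, 0.110% for isoleucine and 0.221% for proline, and in WT 58.9%, 40.2%, 0.352%, 0.192% and 0.114% for the first 5. With up to 3 mismatches, 11 members had a single-place window in place of 17, and with 20 nt or 40 nt windows 16 and 17. The causes of these moves were not tested. Members with few reads limit what can be seen: 7 in exo2Δ and 4 in WT had at most 3 reads.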
